A study of Homo sapiens with 18 samples.

Results

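The HES and HEY genes encode basic helix-loop-helix transcriptional repressors, and most of them are direct targets of the Notch receptors. The 9 genes described here are HES1, HES2, HES4, HES6, HES7, HEY1, HEY2, HEYL and NRARP. They were picked out by symbol from the 21119 genes with a symbol in the deposited tables. NRARP is no bHLH gene but a Notch target whose ankyrin repeat product feeds back on the Notch complex. RNA was sequenced from 18 libraries of MDA-MB-231 cells, an established triple-negative breast cancer (TNBC) cell line, which were seeded at 50000 cells in Matrigel (2 mg/ml) and grown as 3D spheroids until day 7. Each of the 6 groups had 3 biological replicates. Jag1WT is the unedited line, and Jag1KO is a mix of single-cell clones in which Cas9 cut JAG1 in exon 2. Jag1KO + rescue cells are Jag1KO cells that carry a JAG1 cDNA on the pcDNA3.1 plasmid under G418 selection, and Jag1KO + ctrl cells are Jag1KO cells that carry the empty plasmid under the same selection. siJag1 and siCtrl are Jag1WT cells given a mixture of JAG1 siRNAs or a nontargeting siRNA a few hours before seeding. The Jag1KO clones were mixed before use, so the replicates do not sample separate clones, and siRNA is a transient agent in a culture of several days.

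In Notch signaling, a ligand such as Jagged1 on one cell binds a Notch receptor on a neighboring cell. Proteases then release the intracellular domain of the receptor, which enters the nucleus and joins the DNA-binding protein RBPJ and the coactivator Mastermind at target promoters. HES1 is the best known of these targets in epithelial and breast cancer cells, and its product represses its own promoter as well as differentiation and cell cycle inhibitor genes. HES6 is the exception in the family, since its product is known to antagonize HES1. HEY1, HEY2 and HEYL act with or beside HES proteins and are best known from the vessel wall and the heart.

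RBPJ recognizes TGGGAA, and HES1 binds sites such as the N-box CACNAG. Both motifs were searched, on either strand, in the 250 bases before the transcription start of 8 of the 9 genes. The starts were taken from RefSeq on GRCh38.p14. HEY1 was left out of the search, so whether its promoter holds either motif was not tested. TGGGAA was found in HES1, HES4, HEY2 and HEYL and was not found in the windows of HES2, HES6, HES7 and NRARP. Among all 35116 windows of the same length, 20.8% held at least 1 TGGGAA. The longer form GTGGGAA, which contains TGGGAA, was present in the same 4 genes and in 5.43% of all windows. CACNAG was found in HES1 and HES7 and in 32.0% of all windows. The HES7 window (chr17:8124107-8124356, minus strand) lies inside the interval RefSeq gives for the whole gene, so it precedes the start used in the promoter table and not the outermost start. The stretches below are printed 5′ to 3′ on the strand of the gene because they show how the promoters of these 4 genes differ, and capitals mark TGGGAA or its reverse complement TTCCCA.
HES1: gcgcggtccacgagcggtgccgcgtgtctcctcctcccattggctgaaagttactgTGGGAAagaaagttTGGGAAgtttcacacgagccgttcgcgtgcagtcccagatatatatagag
HES4: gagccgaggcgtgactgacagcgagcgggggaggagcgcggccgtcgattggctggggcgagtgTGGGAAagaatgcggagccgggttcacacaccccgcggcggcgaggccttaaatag
HEY2: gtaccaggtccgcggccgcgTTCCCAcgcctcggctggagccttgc
HEYL: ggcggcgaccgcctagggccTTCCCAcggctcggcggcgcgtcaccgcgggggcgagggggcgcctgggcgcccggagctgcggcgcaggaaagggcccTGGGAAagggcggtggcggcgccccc

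The HES1 stretch is chr3:194136008-194136127 on the plus strand. Its TGGGAA matches begin 84 and 70 bases before the start, both on the plus strand and 14 bases apart, and 2.90% of all windows held at least 2 matches. The HES1 window also held 3 matches to CACNAG, which begin 165, 132 and 58 bases before the start. The HES4 stretch, chr1:1000118-1000237 on the minus strand, has its match 76 bases before the start. The HEY2 stretch is chr6:125749399-125749444 on the plus strand, with its match 213 bases upstream on the opposite strand. HEYL, at chr1:39639717-39639841 on the minus strand, has matches 178 and 99 bases upstream, of which the first is on the opposite strand. A match gives the letters only, and binding was not measured.

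Each library held between 10326977 and 18321475 reads on genes with a symbol, so 1 read was worth between 0.0541 and 0.0955 CPM, the deposited unit, in which reads are scaled to a normalized library size. The cells expressed the mesenchymal marker VIM at 2184 to 4946 CPM and ESR1, the estrogen receptor, at no more than 2 reads, as the line is known to, while SPARC, another gene on the list of expressed markers, reached only 1.24 CPM and KRT18, on the list of low markers, lay between 127 and 162 CPM. The fibroblast markers PDGFRA, PDGFRB, DCN, LUM and FAP summed to at most 1.62 CPM in any library. The leukocyte markers summed to 1.23 to 4.99 CPM with PTPRC at no more than 3 reads. The 4 endothelial markers had a higher summed level in Jag1KO (15.1 to 19.3 CPM) than in Jag1WT (13.4 to 14.2 CPM) and in siJag1 (17.9 to 19.3 CPM) than in siCtrl (12.4 to 13.3 CPM), with CDH5 at no more than 1 read in any library, and overlapped between Jag1KO + rescue (17.4 to 19.8 CPM) and Jag1KO + ctrl (17.9 to 23.0 CPM). Only KDR and PECAM1 among them passed the expression filter. They took opposite directions in the knockout (log2 fold change −0.82 and 0.71) and in the rescue (0.65 and −2.13), and neither was called. Their part in the results was not tested. The summed level of 12 cell cycle genes varied widely within groups, and it sets some libraries apart. In Jag1KO it was 269, 1141 and 1290 CPM in replicates 1, 2 and 3, and in Jag1KO + ctrl 1415, 2062 and 348 CPM. In siJag1 it was 320, 1845 and 368 CPM, and in Jag1WT 262, 628 and 260 CPM. It was 280, 696 and 274 CPM in Jag1KO + rescue and 295, 784 and 371 CPM in siCtrl. Jag1KO replicate 1 and Jag1KO + ctrl replicate 3 were thus far below the other libraries of their groups, and siJag1 replicate 2 far above. Some results are also given without these libraries. Between groups, all 12 cell cycle genes had a negative log2 fold change, that is a lower level with JAG1, in each of the 3 comparisons (median −1.26 in the knockout, −1.69 in the rescue and −0.70 after siRNA), of which 1 was called, in the knockout.

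JAG1, which encodes the ligand that was altered, followed the labels in every library. JAG1 stood at 433, 585 and 522 CPM in Jag1WT and at 116, 205 and 149 CPM in Jag1KO. It stood at 534, 657 and 646 CPM in Jag1KO + rescue, where the reads include those of the cDNA, and at 110, 134 and 147 CPM in Jag1KO + ctrl. siCtrl gave 441, 626 and 531 CPM and siJag1 166, 203 and 131 CPM. In each pair of groups the ranges did not overlap, and JAG1 reads remained in the edited cells. In these bulk samples, fewer cells expressing a gene and less RNA per cell cannot be told apart. Genes were called by the quasi-likelihood test of edgeR at a fold change over 1.5 together with an FDR (p adjusted by Benjamini-Hochberg) under 0.05. JAG1 passed in Jag1WT against Jag1KO (log2 fold change 1.71 ± 0.22 SE, adjusted p = 0.0162) and likewise in the comparison of Jag1KO + rescue with Jag1KO + ctrl (2.22 ± 0.18, adjusted p = 0.0229). In siCtrl against siJag1 it missed the threshold (1.68 ± 0.19, adjusted p = 0.111) and passed it with the replicate number as a block (adjusted p = 0.0179) and without siJag1 replicate 2 (1.85, adjusted p = 0.0159). Of the 8 settings run there without leaving out a library, the main one included, 5 called JAG1. Of the 6 fits that left out a library, only 1 did.

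The depth behind the 9 genes differed. HES1 had 4 to 342 reads in a library and HEY1 46 to 153 reads, with medians over all libraries of 5.19 and 7.61 CPM. HES2, HES4, HES6, HES7 and NRARP had from 4 to 45 reads, with medians from 0.751 to 1.55 CPM. HEYL had 2 to 12 reads and HEY2 0 to 9 reads, and HEY2 had no read in Jag1KO replicate 2, which allows up to 3 reads there. Intervals and limits of this kind cover counting error only. Levels of different genes can be compared only per length, for which the authors' gene lengths were used. HES1 led in Jag1WT with 10.7 ± 4.03 CPM per kb (mean ± SD, n = 3), followed by HEY1 with 3.20 ± 0.25 CPM per kb, whereas in Jag1KO HEY1 led with 2.91 ± 0.42 CPM per kb over HES1 with 1.30 ± 1.08 CPM per kb.

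**Figure D1:**
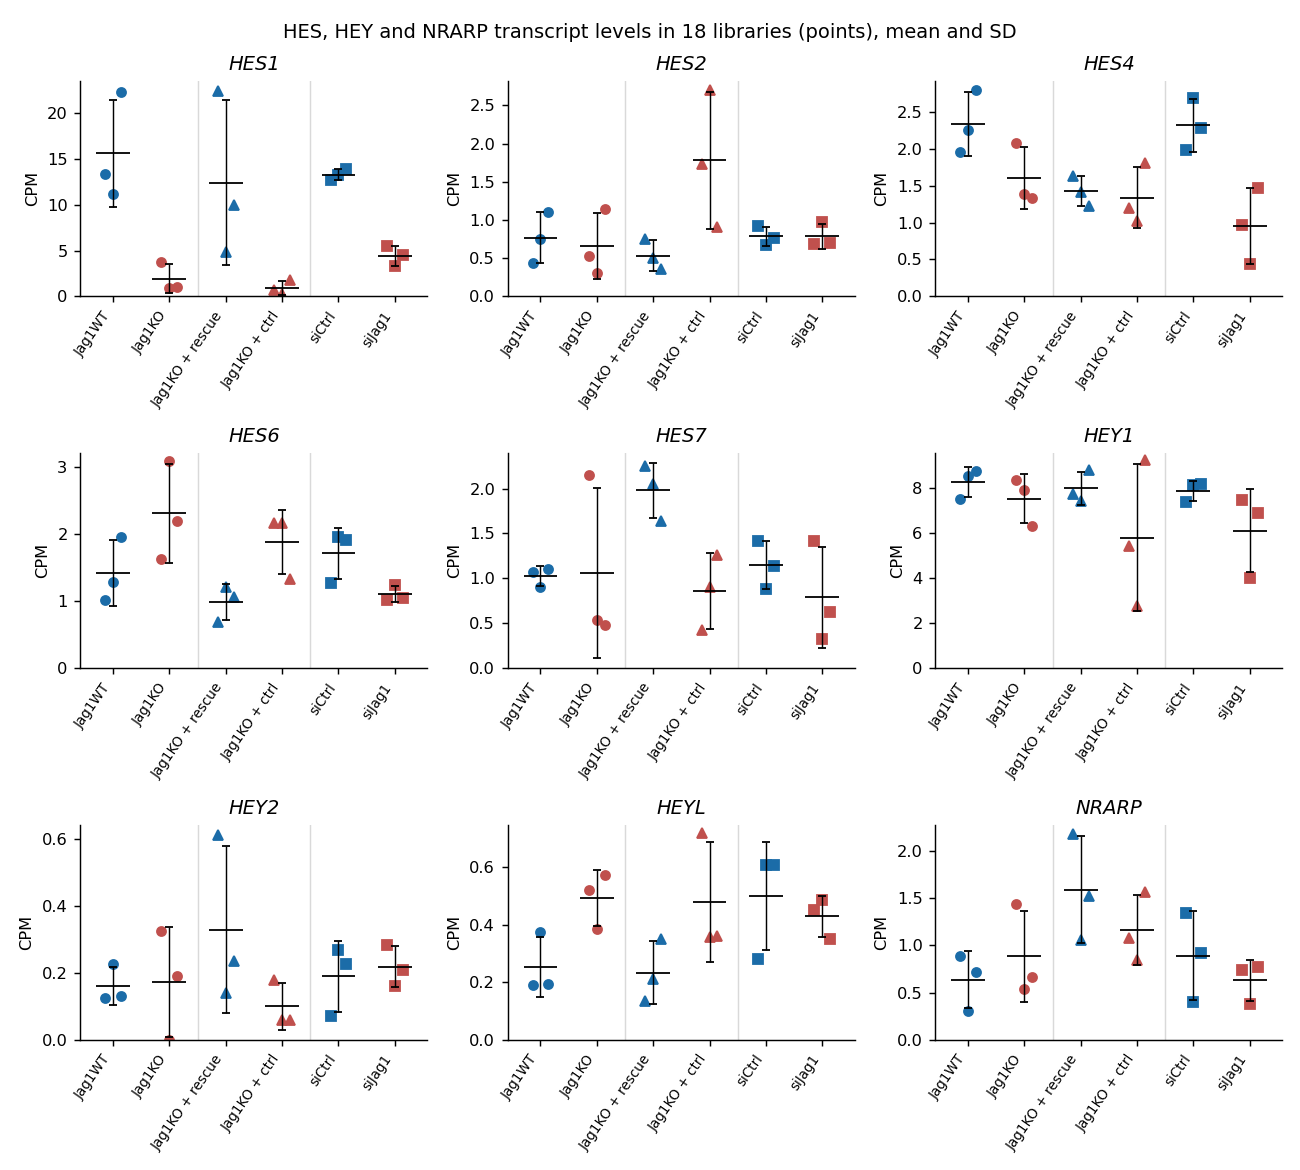
CPM (y axis, linear, from 0) of each of the 9 genes in the 18 libraries, by group on the x axis; points are libraries, horizontal bars means and vertical bars SD, blue for groups with JAG1 and red for groups with JAG1 lowered. HES1 separates blue from red in all 3 pairs of groups, HEY1 stays between 2.76 and 9.21 CPM throughout, and HEY2 and HEYL stay below 1 CPM.

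HES1 (Entrez gene 3280, chr3:194136148-194138732) was the member whose RNA followed JAG1 in all 3 designs. In Jag1WT it stood at 13.4, 11.2 and 22.3 CPM in replicates 1, 2 and 3, and in Jag1KO at 3.72, 0.927 and 1.05 CPM. Every Jag1WT library lay above every Jag1KO library, as did 7.24% of the genes tested (6.58% lay below), and the mean of Jag1KO was 12.1% of that of Jag1WT. In Jag1KO + rescue HES1 stood at 22.4, 4.88 and 9.97 CPM, and in Jag1KO + ctrl at 0.659, 0.240 and 1.74 CPM. These groups did not overlap either, although the rescue libraries spread over more than a factor of 4, and 16.5% of the genes tested were higher without overlap and 16% lower. The mean with the empty plasmid was 7.10% of the mean with the cDNA. In siCtrl it stood at 12.7, 13.2 and 13.9 CPM and in siJag1 at 5.50, 3.30 and 4.48 CPM. The siRNA groups did not overlap, as for 5.15% of the genes tested that were higher and 5.32% that were lower, and 33.3% of the siCtrl mean was left after knockdown.

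Averaged over the 3 designs in a fit of all 18 libraries, HES1 was called higher with JAG1 (log2 fold change 2.79 ± 0.35 SE, edgeR adjusted p = 0.000643). It was the only member called among the 5 tested there, against 0.933% of all 12757 genes called in either direction and 0.353% called higher. HES1 was also called in each of the 18 fits that left out a library (log2 fold change 2.54 to 3.12) and under each of the 6 other settings tried (2.23 to 2.81).

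Within single designs HES1 had large fold changes that missed the adjusted threshold. In Jag1WT against Jag1KO the log2 fold change was 2.99 ± 0.52 with an adjusted p of 0.0530, and 0 of the 5 members tested were called, against 0.714% of the 12879 genes. The HES1 call was made by limma on log2(CPM + 1) (adjusted p = 0.0265), by DESeq2 (1.94e-07), without the filter on low counts (0.00508), with all 18 libraries in the fit (0.0209) and without Jag1KO replicate 1 (log2 fold change 3.97, adjusted p = 0.00105). Of the 6 edgeR fits that each left out a library, only this 1 called HES1, and the highest adjusted p was 0.262. For HES1 in Jag1KO + rescue against Jag1KO + ctrl it was 3.79 ± 0.75 with an adjusted p of 0.104, and 0 of 6 members were called, against 0.00778% of 12850 genes, which is JAG1 alone, while 3954 genes had an unadjusted p below 0.05. HES1 passed there with DESeq2 (adjusted p = 1.04e-05), with all 18 libraries in the fit (0.00492) and without Jag1KO + ctrl replicate 3 (log2 fold change 4.76, adjusted p = 0.00747). It missed the threshold by limma (adjusted p = 0.0987). By edgeR it missed without the filter (0.0503) and in the other fits without a library (up to 0.375). In siCtrl against siJag1 it was 1.60 ± 0.21 with an adjusted p of 0.125, and 0 of 5 members were called, against 0.0157% of 12774 genes, while 489 genes had an unadjusted p below 0.05. HES1 passed there with DESeq2 (adjusted p = 1.77e-07) and without the filter (0.0399). With the replicate number as a block, which pairs these libraries, the siRNA comparison called 4 genes in place of 2, and HES1 stayed outside them (adjusted p = 0.112), as it did without siJag1 replicate 2 (log2 fold change 1.42, adjusted p = 0.0568). No edgeR fit that left out a library called HES1 there (adjusted p up to 0.909).

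The HES1 fold change was nominally smaller after siRNA than in the edited cells. It exceeded that of the siRNA design by 1.39 ± 0.59 on the log2 scale in Jag1WT against Jag1KO (edgeR interaction, adjusted p = 0.999) and by 2.18 ± 0.80 in Jag1KO + rescue against Jag1KO + ctrl (adjusted p = 0.179). Neither difference passed the threshold, which 0.11% and 0.094% of all genes did, and the difference between both edited designs was −0.78 ± 0.98 (adjusted p = 0.666, with 0.547% of all genes called). JAG1 RNA stood at similar levels in the 3 groups with lowered JAG1, whose ranges overlapped. RNA levels do not give the amount of Jagged1 protein. The paper states that DNA sequencing and Western blotting were used to check the edited clones for the knockout. In the order of group means HES1 ran from Jag1WT over siCtrl, Jag1KO + rescue, siJag1 and Jag1KO to Jag1KO + ctrl, and each neighbor in that order overlapped the next in range.

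In the control comparisons, in which JAG1 was not altered on purpose, none of the members tested was called, and all 9 members overlapped between the groups. In Jag1KO + ctrl and Jag1KO 10.1% of the genes tested did not overlap, and in siCtrl and Jag1WT 6.3%. Jag1KO + ctrl against Jag1KO called 0 of 12956 genes by edgeR, with 753 at an unadjusted p below 0.05, and HES1 gave −1.15 ± 0.77 (adjusted p = 0.769). siCtrl against Jag1WT called 0 of 12797 genes, with 176 at an unadjusted p below 0.05 and 1 gene called with the replicate block, and HES1 gave −0.25 ± 0.24 (adjusted p = 1.00). These comparisons share their libraries with the others and are no further replicates.

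**Figure D2:**
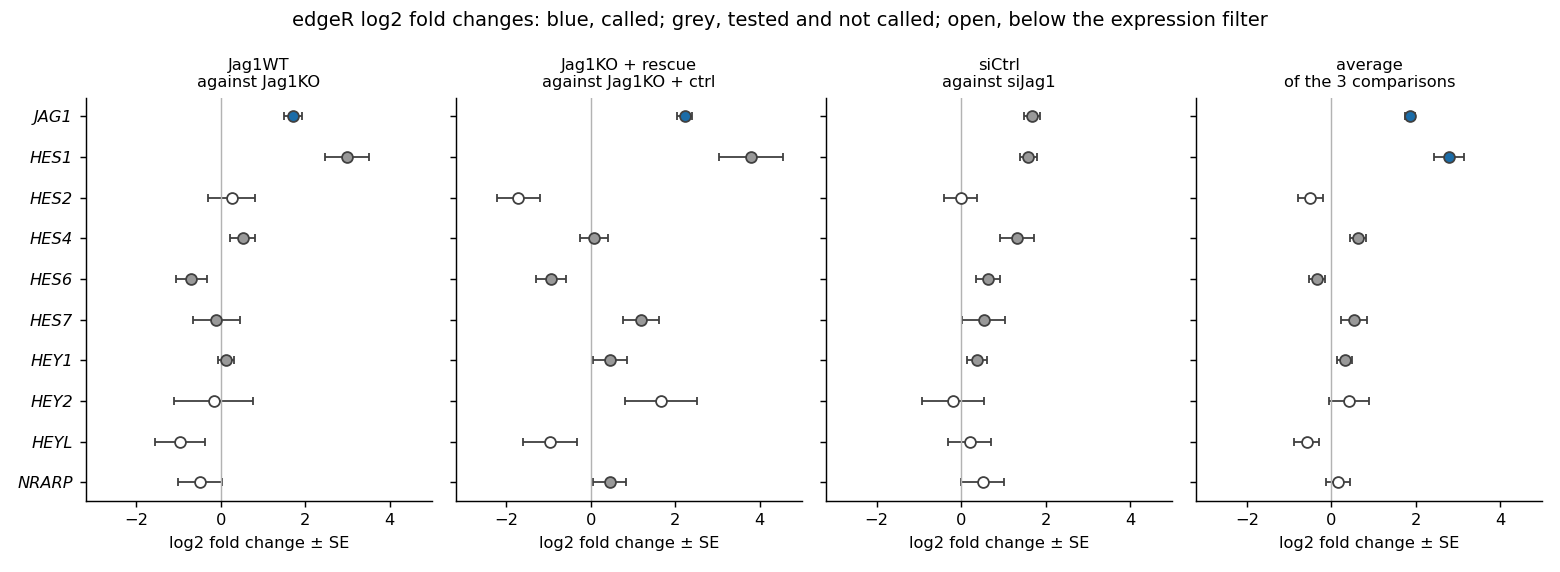
edgeR log2 fold change (x axis) with its SE (bars) of JAG1 and the 9 genes (y axis) in the 3 comparisons and in their average; blue points were called, grey points tested and not called, and open points lay below the expression filter and come from a fit without it. HES1 is far to the right in all 4 panels and is blue only in the average (2.79), where every other member lies between −0.58 and 0.63.

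HES1 also varied between the libraries within most groups. In 4 of the 6 groups, namely Jag1WT, Jag1KO + rescue, Jag1KO + ctrl and siJag1, the library with the highest summed cell cycle level had the lowest HES1 level. With groups of 3 such an order often arises without a link, and its share over all genes was not computed. In these 4 groups the most cycling library was replicate 2, so cell cycle level and replicate number cannot be told apart there. In Jag1KO, where replicate 3 cycled most, HES1 was lowest in replicate 2, at 0.927 CPM. In siCtrl HES1 lay between 12.7 and 13.9 CPM and was lowest in the least cycling library, replicate 1 at 295 CPM. In Jag1KO the least cycling library, replicate 1 at 269 CPM, had the highest HES1 level of 3.72 CPM, and in Jag1KO + ctrl the least cycling library, replicate 3 at 348 CPM, likewise had the highest at 1.74 CPM. Both lay below the lowest Jag1WT or Jag1KO + rescue library, at 4.88 CPM. With the cell cycle level as a covariate, an alternative chosen after the data were seen, HES1 gave 2.47 ± 0.27 in Jag1WT against Jag1KO (adjusted p = 5.04e-05), 2.38 ± 0.48 in the rescue (adjusted p = 0.435), 1.53 ± 0.16 after siRNA (adjusted p = 0.00522) and 2.31 ± 0.26 in the average (adjusted p = 0.000122).

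**Figure D3:**
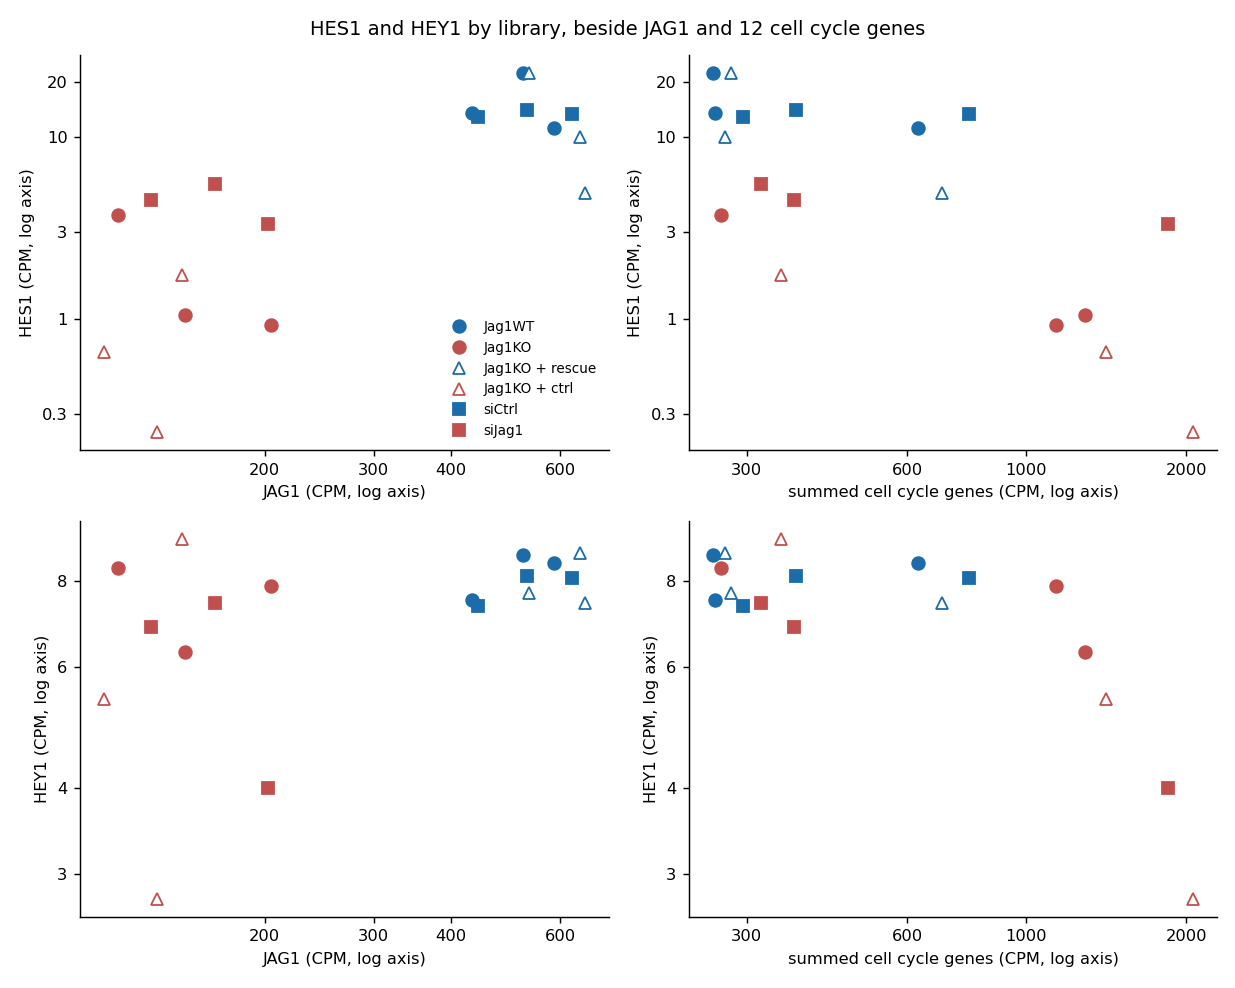
HES1 (top) and HEY1 (bottom) in CPM against JAG1 in CPM (left) and against the summed CPM of 12 cell cycle genes (right), all on log axes, 1 point per library with shape and color by group. HES1 lies from 4.88 to 22.4 CPM in the 9 libraries with JAG1 and from 0.240 to 5.50 CPM in the 9 with JAG1 lowered. These ranges overlap between designs, while HES1 separates the groups of each pair. HEY1 separates no pair and is lowest, at 2.76 and 4.00 CPM, in the 2 libraries with the highest cell cycle level.

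HEY1 (Entrez gene 23462), a HES-related repressor, lay between 2.76 and 9.21 CPM in all groups. It stood at 7.51, 8.49 and 8.74 CPM in Jag1WT and at 8.35, 7.88 and 6.31 CPM in Jag1KO. It stood at 7.70, 7.42 and 8.79 CPM in Jag1KO + rescue and at 5.40, 2.76 and 9.21 CPM in Jag1KO + ctrl. siCtrl gave 7.35, 8.09 and 8.15 CPM and siJag1 7.43, 4.00 and 6.85 CPM. The groups overlapped in every comparison, and the low values were those of Jag1KO + ctrl replicate 2 and siJag1 replicate 2, which had the highest cell cycle levels of all libraries, 2062 and 1845 CPM. The log2 fold changes of HEY1 were 0.13 ± 0.19, 0.45 ± 0.40 and 0.38 ± 0.24 in the knockout, rescue and siRNA comparisons and 0.31 ± 0.18 on average (adjusted p = 0.252), none of which was called. They moved when single libraries were left out. Without Jag1KO + ctrl replicate 3 the rescue gave 0.97 (adjusted p = 0.0512), without replicate 2 of that group 0.12, and the average without replicate 3 gave 0.48 (adjusted p = 0.0281), below the fold threshold. Without siJag1 replicate 2 the siRNA comparison gave 0.15 (adjusted p = 0.975).

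HES4 (Entrez gene 57801, chr1:998964-1000097), a close relative of HES1 with no mouse counterpart, separated the siRNA groups. It stood at 1.98, 2.70 and 2.28 CPM in siCtrl and at 0.964, 0.433 and 1.47 CPM in siJag1. These groups did not overlap, and 10.5% of the genes tested likewise did not overlap between them. The log2 fold change was 1.31 ± 0.41 and was not called (edgeR adjusted p = 0.970). HES4 stood at 1.96, 2.26 and 2.80 CPM in Jag1WT and at 2.09, 1.39 and 1.34 CPM in Jag1KO, which overlapped (0.52 ± 0.30). It overlapped in the rescue as well, at 1.64, 1.41 and 1.23 CPM in Jag1KO + rescue beside 1.20, 1.02 and 1.81 CPM in Jag1KO + ctrl (0.08 ± 0.34). On average HES4 gave 0.63 ± 0.20 (adjusted p = 0.0965), and it was called without Jag1KO + ctrl replicate 3 (0.72, adjusted p = 0.0210).

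HES6 (Entrez gene 55502, chr2:238238267-238240038), the antagonist of HES1, had negative fold changes in the edited cells and a positive one after siRNA, none called. It stood at 1.01, 1.28 and 1.96 CPM in Jag1WT and at 1.63, 3.09 and 2.20 CPM in Jag1KO, with overlap (log2 fold change −0.70 ± 0.37, adjusted p = 0.634). In Jag1KO + rescue it stood at 0.681, 1.20 and 1.06 CPM, below each Jag1KO + ctrl library at 2.16, 2.16 and 1.32 CPM. In that comparison 32.5% of all genes tested did not overlap between the groups, and HES6 was not called (−0.94 ± 0.36, adjusted p = 0.136). It was called lower in 2 alternatives, with all 18 libraries in the fit (adjusted p = 0.0458) and without Jag1KO + ctrl replicate 3 (−1.14, adjusted p = 0.0398). After siRNA the sign was the opposite, with 1.27, 1.96 and 1.90 CPM in siCtrl above 1.02, 1.24 and 1.05 CPM in siJag1 (0.63 ± 0.28, adjusted p = 0.970), again without overlap, as for 10.5% of the genes tested.

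HES7 (Entrez gene 84667, chr17:8120592-8126634), known for its oscillation in the segmenting embryo, had its highest mean in the rescue. It stood at 2.25, 2.05 and 1.64 CPM in Jag1KO + rescue and at 0.420, 0.899 and 1.26 CPM in Jag1KO + ctrl, without overlap, as for 32.5% of the genes tested (16.5% higher). The log2 fold change was 1.18 ± 0.42 (adjusted p = 0.124), which passed only when Jag1KO + ctrl replicate 3 was left out (1.57, adjusted p = 0.0281). In Jag1WT, which was not compared with the rescue in a test, HES7 stood at 1.07, 0.902 and 1.11 CPM. Jag1KO gave 2.15, 0.541 and 0.478 CPM, so that replicate 1, the library with the low cell cycle level, lay far above the other replicates (Jag1WT against Jag1KO −0.10 ± 0.56). Without that library HES7 fell below the expression filter in this comparison. siCtrl gave 1.41, 0.877 and 1.14 CPM and siJag1 1.42, 0.324 and 0.629 CPM (0.53 ± 0.51, and 0.14 without siJag1 replicate 2), with overlap. Like HES1, HES7 was lowest in the most cycling library in 4 of the 6 groups, and the limits given for HES1 apply here too.

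HES2 (Entrez gene 54626, chr1:6415232-6419919), another member of the family, had its highest mean in Jag1KO + ctrl, whose range overlapped that of Jag1KO and of Jag1WT. It was at 1.74, 2.70 and 0.903 CPM in Jag1KO + ctrl and at 0.750, 0.495 and 0.352 CPM in Jag1KO + rescue, without overlap, as for 32.5% of the genes tested (16% lower). HES2 fell below the expression filter in that comparison, and the fit without the filter gave −1.72 ± 0.51 (adjusted p = 0.0886). Jag1KO, without a plasmid, gave 0.522, 0.309 and 1.15 CPM, and Jag1KO + ctrl against Jag1KO gave 1.45 ± 0.58 (adjusted p = 0.757). HES2 was between 0.442 and 1.11 CPM in Jag1WT, siCtrl and siJag1.

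NRARP (Entrez gene 441478, chr9:137299631-137302271), the feedback gene, did not follow JAG1. It stood at 0.884, 0.301 and 0.717 CPM in Jag1WT and at 1.44, 0.541 and 0.669 CPM in Jag1KO, and at 2.18, 1.06 and 1.52 CPM in Jag1KO + rescue and 1.08, 0.839 and 1.56 CPM in Jag1KO + ctrl. The groups overlapped, and the rescue comparison, the main one in which NRARP passed the filter, gave 0.44 ± 0.39 (adjusted p = 0.444). siCtrl gave 1.34, 0.405 and 0.913 CPM and siJag1 0.737, 0.379 and 0.769 CPM. NRARP was lowest in the most cycling library in 5 of the 6 groups, more often than any other member. In those groups that library was replicate 2, so cell cycle level and replicate number cannot be told apart there. In Jag1KO, where replicate 3 cycled most, NRARP was lowest in replicate 2 as well. The share of all genes with such an order was not computed.

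HEYL (Entrez gene 26508, chr1:39623435-39639643) had few reads and was called in no comparison. It stood at 0.189, 0.376 and 0.196 CPM in Jag1WT and at 0.522, 0.386 and 0.573 CPM in Jag1KO. It stood at 0.136, 0.212 and 0.352 CPM in Jag1KO + rescue and at 0.719, 0.360 and 0.361 CPM in Jag1KO + ctrl. Neither pair of groups overlapped, and in 13.8% of the genes tested Jag1WT and Jag1KO did not overlap either, as in 32.5% for the rescue comparison. The gap between the nearest libraries was less than 1 read in both cases, and fits without the filter gave −0.96 ± 0.60 (adjusted p = 0.784) and −0.97 ± 0.63 (adjusted p = 0.377). After siRNA HEYL overlapped (0.20 ± 0.51). HEY2 (Entrez gene 23493, chr6:125749632-125761269) was between 0 and 0.613 CPM and overlapped in every comparison, with a fit of 1.66 ± 0.85 in the rescue (adjusted p = 0.262). HEY2 was called in no comparison.

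The makeup of the transcript pool differed between groups, with HES1 as the member whose share varied most. Of the summed CPM per kb of the 9 genes, HES1 took 63.0 ± 6.14% in Jag1WT, 54.5 ± 17.0% in Jag1KO + rescue and 59.3 ± 0.93% in siCtrl (mean ± SD, n = 3 each). It took 16.1 ± 9.90% in Jag1KO, 9.08 ± 5.96% in Jag1KO + ctrl and 41.2 ± 2.04% in siJag1. HEY1 took the largest share in Jag1KO, at 39.7 ± 4.54%, and in Jag1KO + ctrl, at 36.0 ± 11.0%, while HES6 took 22.5 ± 9.46% and 24.0 ± 11.3% there beside 5.79 ± 0.88% in Jag1WT. The summed level itself was 16.7 ± 4.74 CPM per kb in Jag1WT and 7.43 ± 1.64 CPM per kb in Jag1KO. These shares are sums that share their terms, so that a lower HES1 level alone raises the share of every other member.

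**Figure D4:**
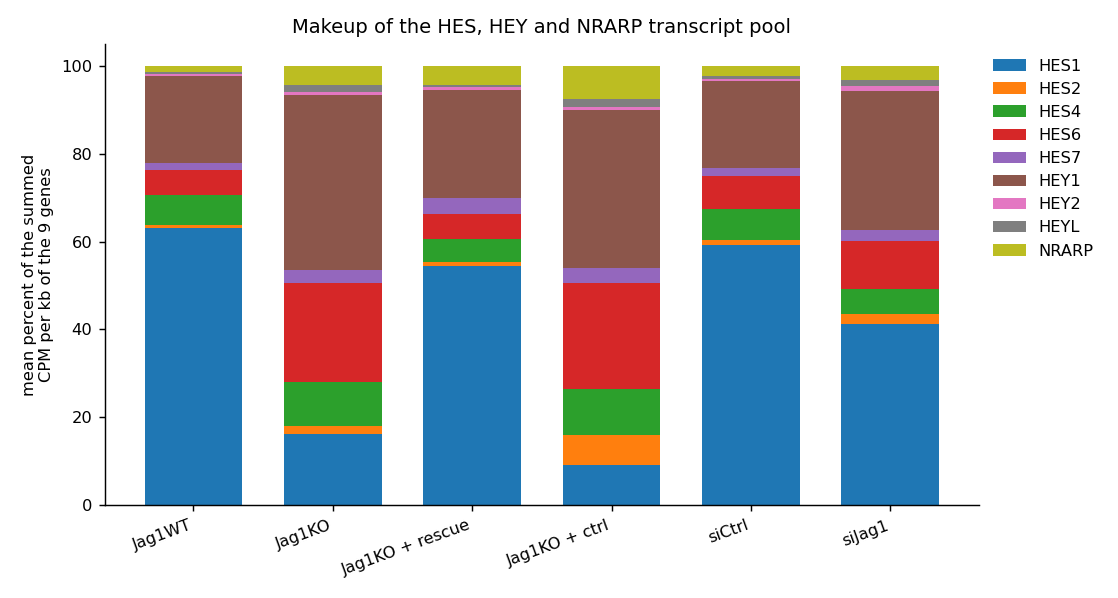
Stacked mean share (y axis, percent of the summed CPM per kb of the 9 genes, n = 3 libraries a group) by group on the x axis, 1 color per gene. HES1 makes up between 54.5% and 63.0% of the stack with JAG1 and between 9.08% and 41.2% with JAG1 lowered.

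Over the members tested, the median log2 fold change was 0.13 in the knockout comparison, 0.45 with the rescue and 0.63 after siRNA, beside −0.01, 0.00 and −0.01 over all genes tested. Of the tested members 3 of 5, 5 of 6 and 5 of 5 had a positive value. Members below the filter took both signs in the fits without it. In the knockout HES2 gave 0.27, HEY2 −0.17, HEYL −0.96 and NRARP −0.49. In the rescue HES2 gave −1.72, HEY2 1.66 and HEYL −0.97. After siRNA HES2 gave −0.0049, HEY2 −0.19, HEYL 0.20 and NRARP 0.51. The share of positive values over all genes was not computed.

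The genes whose levels over the 18 libraries were most like those of HES1 on log2(CPM + 1) were TACC2 (Pearson r = 0.934), F2RL1 (0.925) and TGFBR1 (0.913), the type I receptor for TGFβ, among 12757 genes searched. For HEY1 they were VEGFA (0.960), GPT2 (0.949) and MAL2 (0.947). HES4 was most like SIN3B (0.888), CD151 (0.878) and HIP1R (0.869), HES6 like PCSK4 (0.883) and B3GNTL1 (0.855), and HES7 like SAFB2 (0.887), MGAM (0.879) and BANP (0.875). No gene named here stood in the lists of more than 1 member. The points share their 6 groups and the cell cycle differences between libraries, and the coefficients describe these libraries only.

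Beyond the 9 genes, a list of 72 ligands, receptors, modifiers, proteases, transcription complex members, corepressors, other bHLH genes and reported targets, JAG1 included, had 59, 60 and 58 genes tested in the knockout, rescue and siRNA comparisons. Called higher with JAG1 were 2, 1 and 0 of them, and none was called lower, where 0.412%, 0.00778% and 0.0157% of all genes were called higher. The called genes were JAG1 and, in Jag1WT against Jag1KO, IL6, a cytokine reported as a Notch target (log2 fold change 1.48 ± 0.20, adjusted p = 0.0210). IL6 gave 1.16 ± 0.62 in the rescue and 1.16 ± 0.36 after siRNA, which were not called, and 1.26 ± 0.30 on average (adjusted p = 0.0468), which was. The median log2 fold change of the list was 0.08, 0.13 and 0.06.

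Among the receptors, NOTCH2 was the most abundant at 334 to 510 CPM, and NOTCH1 lay between 24.9 and 86.2 CPM. NOTCH2 gave 0.23 ± 0.05 on average (adjusted p = 0.0468), below the fold threshold, and NOTCH1 0.40 ± 0.18 (adjusted p = 0.182). NOTCH3 reached at most 0.886 CPM and NOTCH4 2.46 CPM. NOTCH4 gave −1.19 ± 0.46 in Jag1WT against Jag1KO (adjusted p = 0.48). RBPJ, the DNA-binding partner, gave −0.02 ± 0.09 on average. Of the ligands other than JAG1, JAG2 was at 0.90 ± 0.33 CPM in siJag1 and at 1.77 ± 0.19 CPM in siCtrl (1.00 ± 0.33, adjusted p = 0.970), while DLL1 reached at most 0.326 CPM, DLL3 0.0586 CPM and DLL4 2.52 CPM.

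Of the HES-related genes outside the 9, BHLHE40 (77.4 to 286 CPM) gave 0.40 ± 0.16, 0.67 ± 0.35 and 0.59 ± 0.21 in the 3 comparisons, none called, and BHLHE41 (21.7 to 42.6 CPM) gave 0.25 ± 0.17, 0.05 ± 0.26 and 0.05 ± 0.18. HES5 had 1 read in 1 library and no read in the others, which allows up to 3 reads in each. Of 10 genes reported as repressed by HES1, 5 were tested in each comparison and 0 were called. Of all genes tested, 0.714%, 0.00778% and 0.0157% were called in the knockout, rescue and siRNA comparisons, so a count of 0 among 5 says little. CDKN1B, which encodes the cell cycle inhibitor p27, gave −0.13 ± 0.12, 0.39 ± 0.21 and 0.05 ± 0.17.

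**Figure D5:**
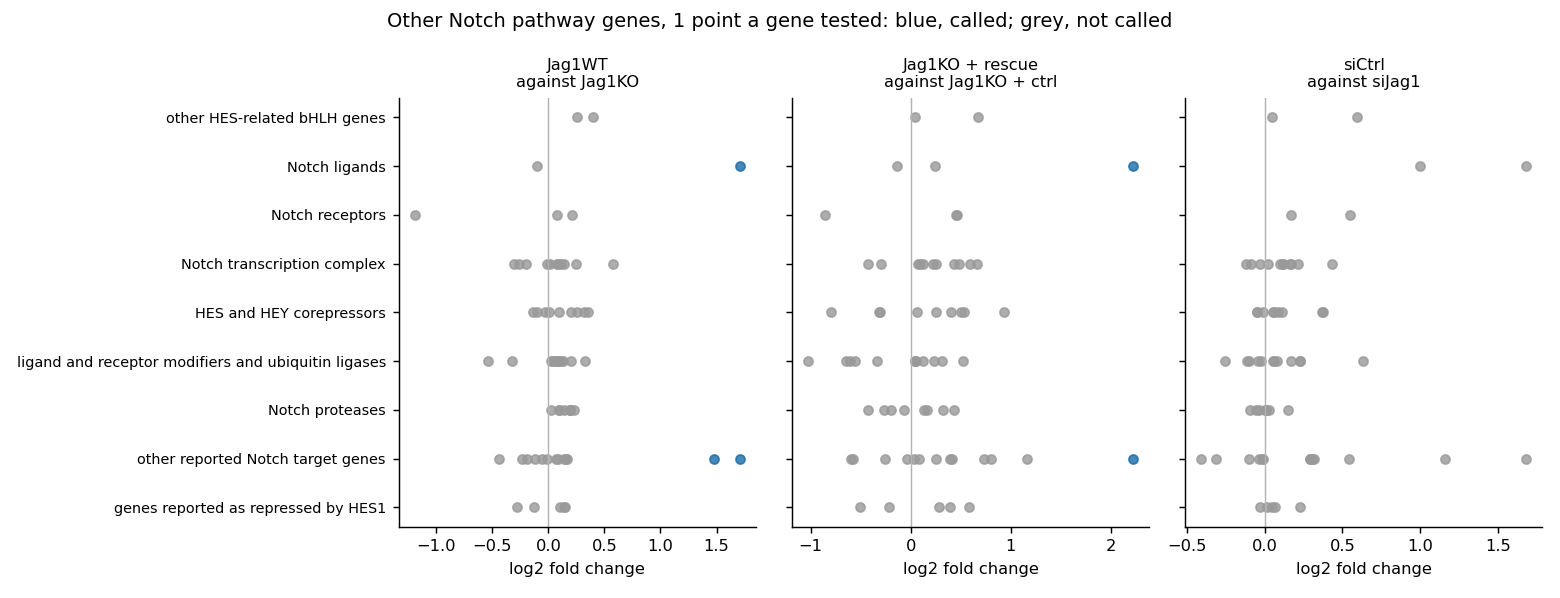
edgeR log2 fold change (x axis) of the other pathway genes in 9 lists (y axis), 1 panel per comparison and 1 point per gene tested, blue when called and grey when not; JAG1 stands in 2 lists. The blue points are JAG1 at 1.71 and 2.22 and IL6 at 1.48, and most other points lie within 0.5 of 0 in the knockout and siRNA panels.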

How the data were processed

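The deposited count table holds whole-number reads per gene that the authors counted with featureCounts on hg38, per the labels, and the aligner is not given in the sources used here. Libraries were stranded, from 300 ng of total RNA, and only uniquely mapped reads were counted. The deposited CPM are scaled by the authors to the TMM-normalized library size, which was checked from the ratio to the counts. The deposited RPKM gave the gene lengths only, and 3 of its per-sample columns matched no label and were not used. The submitters' processing notes name MultiQC 1.5, R 3.6.1 and edgeR 3.28.0. Rows without a symbol (292, holding up to 0.0442% of a library) were left out.

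The members and lists were chosen with earlier results of these data known. edgeR 4.0.16 (quasi-likelihood, TMM, R 4.3.3) was run on the counts of the libraries compared, for genes above 1 CPM in at least 3 of 6, 6 of 12 or 9 of 18 libraries, and p-values were adjusted over all genes tested. The study's own test, ROTS, was not installed. SE is the absolute log2 fold change divided by the root of F. Alternatives were limma 3.58.1 on log2(CPM + 1), DESeq2 1.42.0, RLE factors, no filter, all 18 libraries, a replicate block, leaving out each library, and a cell cycle covariate chosen after the data were seen. Scripts were tested on simulated data. Named were all members, JAG1, the receptors, listed genes that were called, and the 3 genes most like each member above 1 CPM in at least 9 libraries, of which 1 is not reported here. Other listed genes (RBPJ, JAG2, DLL1, DLL3, DLL4, BHLHE40, BHLHE41, HES5, CDKN1B) and the markers were named after their values were seen. Deviations from the group means of libraries with the same replicate number correlated at 0.544, 0.523 and 0.264 in siCtrl and siJag1 and at 0.597, 0.715 and 0.213 in siCtrl and Jag1WT, so the numbers pair these libraries, as hinted by the data. In Jag1WT and Jag1KO they correlated at 0.634, 0.670 and −0.010, so whether the numbers pair these libraries is unclear. In the remaining comparisons at least 1 of the 3 was below 0.1. No replicate was a copy of another, since chi-square over df was 7.78 to 114 between replicates of a group. Nothing in the labels says what separates the biological replicates of a line, and p-values measure the spread between these cultures.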

Additional observations from a re-analysis of the deposited data

Results flagged for a closer look

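HES6 is given here because its groups did not overlap in 2 designs and differed in opposite directions. Of all genes tested, 32.5% did not overlap in the rescue design (16% lower) and 10.5% in the siRNA design (5.15% higher), and HES6 was called in neither. Each Jag1KO + rescue library lay below each Jag1KO + ctrl library, and each siCtrl library lay above each siJag1 library. The log2 fold change of the rescue minus that of the siRNA design was −1.59 ± 0.43, higher JAG1 going with lower HES6 in the first and higher HES6 in the second, and the edgeR interaction test did not pass after adjustment over all genes (adjusted p = 0.116). Groups of 3 are too small for the search for single outlying libraries.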

How the results depend on the processing

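HES1 kept its direction in the 3 comparisons and their average under every alternative run, and its call in the average under all of them. The number of genes called moved more than the members. In Jag1WT against Jag1KO, 92 genes were called, and 157 without the filter, 235 by DESeq2, 342 with the cell cycle covariate, 282 with the replicate block and 8 to 933 when 1 library was left out, the highest without Jag1KO replicate 1. Members called went from 0 to 1, HES1, with limma, without the filter, by DESeq2, with the covariate, with all 18 libraries and with the replicate block, and between 0 and 1 without a library. In Jag1KO + rescue against Jag1KO + ctrl, 1 gene was called, and 2 by limma, 2 without the filter, 1583 by DESeq2, 3 with the covariate, 2133 with all 18 libraries, 3 with the replicate block and 0 to 3649 without a library, the highest without Jag1KO + ctrl replicate 3. Members called went from 0 to 1 by DESeq2, to 2 with all 18 libraries (HES1 and HES6) and to between 0 and 3 without a library. In siCtrl against siJag1, 2 genes were called, and 0 by limma, 8 without the filter, 24 by DESeq2, 36 with the covariate, 7 with all 18 libraries, 4 with the replicate block and 0 to 4 without a library. Members called went from 0 to 1 without the filter, by DESeq2 and with the covariate, and stayed at 0 without a library. In the average, 119 genes were called, and 91 by limma, 88 with the covariate, 232 without the filter, 396 by DESeq2, 600 with the replicate block and 51 to 854 without a library, the highest without Jag1KO + ctrl replicate 3. Members called went from 1 to 2 with the replicate block, where HES4 was called beside HES1, and lay between 1 and 2 without a library. Without a library, the comparison of Jag1KO + ctrl with Jag1KO called 0 to 301 genes, the highest without Jag1KO + ctrl replicate 3, and that of siCtrl with Jag1WT 0, or 1 with the replicate block. Neither called a member. Small fold changes changed sign. HES7 in Jag1WT against Jag1KO went from −0.10 to 0.071 by limma and 0.010 with the replicate block. In the rescue, HES4 went to −0.26, HEY1 to −0.088 and NRARP to −0.15 with the cell cycle covariate, and HES4 lay between −0.086 and 0.35 without a library. The NRARP difference between the rescue and siRNA designs went to 0.061 by limma. Without a library, siCtrl against Jag1WT lay between −0.091 and 0.16 for JAG1, −0.43 and 0.11 for HES1, −0.15 and 0.14 for HES4 and −0.046 and 0.30 for HES7. JAG1 lost its call in 4 of 6 such fits in the knockout and 5 of 6 in the rescue. Why these calls and the counts of genes moved was not tested. Depth limits the values of HES2, HES4, HES6, HES7, HEY2, HEYL and NRARP, each with at most 45 reads in a library.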
